A study of Rattus norvegicus with 6 samples.

Results

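The genes described here carry heme and iron through a tissue: they bind or break down heme (Hmox1, Cd163), take up or withhold iron (Tfrc, Slc11a1, Lcn2), release iron from cells (Cp, Slc40a1) or carry heme inside red cells (Hbb, Hbb-b1). They were chosen by gene symbol from a list made with earlier results of these data known. Their counts set against all tested genes are therefore a description. Each was read from a probe set, the group of probes that gives 1 value per array, annotated with that symbol alone. All 9 of 9 were found, each with a single such probe set, among 14497 genes that had one, and all 9 were among the 10947 genes tested. RNA came from brain tissue of male Sprague-Dawley rats on 6 Affymetrix whole-transcript arrays, 1 array for each of 6 groups. Aged and young rats were studied without a stroke (naive) and 3 d and 14 d after an infarct, for which the middle cerebral artery had been lifted for a short time with a hook. Aged stroke rats were 19 to 20 months old and young stroke rats 3 to 4 months. Aged naive rats were 18 to 20 months old and young naive rats 3 to 5 months. Each array held pooled RNA of 23 aged or 19 young rats at each time after stroke, or of 15 naive rats of each age, so the spread between animals was not measured. Stroke tissue was the area around the infarct, and the naive tissue is labelled healthy brain with no region named. Whether blood was flushed from the brains is not given in the sources used here.

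Heme freed from red cells or dying cells is bound by carrier proteins, taken up by macrophages and opened by heme oxygenase, which yields biliverdin, carbon monoxide and iron. The iron is stored in ferritin or leaves the cell through ferroportin with the help of a copper-containing ferroxidase, while the transferrin receptor brings iron in. In injured brain these steps are known mainly from microglia, infiltrating macrophages and reactive astrocytes, and free iron there is known to promote lipid peroxidation.

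Levels are given as log2 probe set values, and a change of 1 means a factor of 2. The fit with limma took age and time after stroke as additive terms over the 6 arrays. The aged and the young array of a time point therefore served as its repeats (n = 2 arrays per time point). The p-values, adjusted over all tested genes with a threshold of 0.05, measure only the spread between these pools that the fit left over. That spread mixes noise with any difference between the ages in the change over time, and these cannot be told apart. The array medians lay between 7.09 and 7.15. Marker genes of several cell types moved with time. All 10 microglia and macrophage markers rose at 3 d and at 14 d, with median changes of 1.73 and 1.72. Their summed level on the linear scale was 4370 in aged and 3420 in young naive brain, 11700 in aged and 11000 in young rats at 3 d, and 17200 in aged and 11500 in young rats at 14 d. Reactive astrocyte markers rose in 10 of 10 tested cases at 3 d and in 7 of 10 at 14 d, although 2 of these are Lcn2 and Cp themselves. Endothelial markers rose in 6 of 11 cases at 3 d and 4 of 11 at 14 d. Cell division genes rose in 12 of 12 cases at 3 d and 4 of 12 at 14 d. In naive brain 4 of these 12 lay above the 40th percentile in aged and 3 in young rats, against 12 on each 3 d array. Genes of this and the other marker lists that were below it on both naive arrays entered the test through the stroke arrays. Their counts as risers are a description. Neuron markers fell in 2 of 8 cases at 3 d and 5 of 8 at 14 d. Oligodendrocyte markers fell in 3 of 7 cases at 3 d and 1 of 7 at 14 d. Choroid plexus markers fell in 6 of 8 cases at 3 d, and 1 of 8 rose at 14 d. Over all tested genes 14.4% rose and 7.87% fell at 3 d, and 13.6% rose and 11.4% fell at 14 d. The 14 d counts of oligodendrocyte markers (14.3%) and choroid plexus markers (12.5%) lay near these shares. In such bulk tissue a change in the number of cells of a type and a change in RNA per cell cannot be told apart. Every comparison with naive brain also sets the area around the infarct against tissue of no named region. A difference between regions cannot be told apart from an effect of stroke there.

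Of the 9 genes, 5 rose and 2 fell at 3 d relative to naive brain. Lcn2, Hmox1, Cp, Slc11a1 and Cd163 were higher, Hbb and Hbb-b1 were lower, and Tfrc and Slc40a1 did not pass the test. Over all tested genes 14.4% rose and 7.87% fell in this comparison, 22.2% in all. At 14 d the same 5 genes were higher and 3 were lower, Tfrc having joined the globins, against 13.6% higher, 11.4% lower and 25% in all among the tested genes. Hmox1, Slc11a1 and Cd163 lay below the 40th percentile of both naive arrays and entered the test through the stroke arrays, so their counts as risers are a description. With the filter on low values removed, the same 7 genes passed at 3 d and the same 8 at 14 d. Both arrays of a time point lay clear of both naive arrays for 7 of the 9 genes at 3 d and 9 of 9 at 14 d, against 71.9% and 66.2% of all tested genes, and the 14 d arrays lay clear of the 3 d arrays for 6 of 9, against 34.3%. Between the times after stroke, Cp was higher and Hmox1 and Lcn2 were lower at 14 d than at 3 d, against 1.34% higher, 1.82% lower and 3.16% in all among the tested genes.

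**Figure D1:**
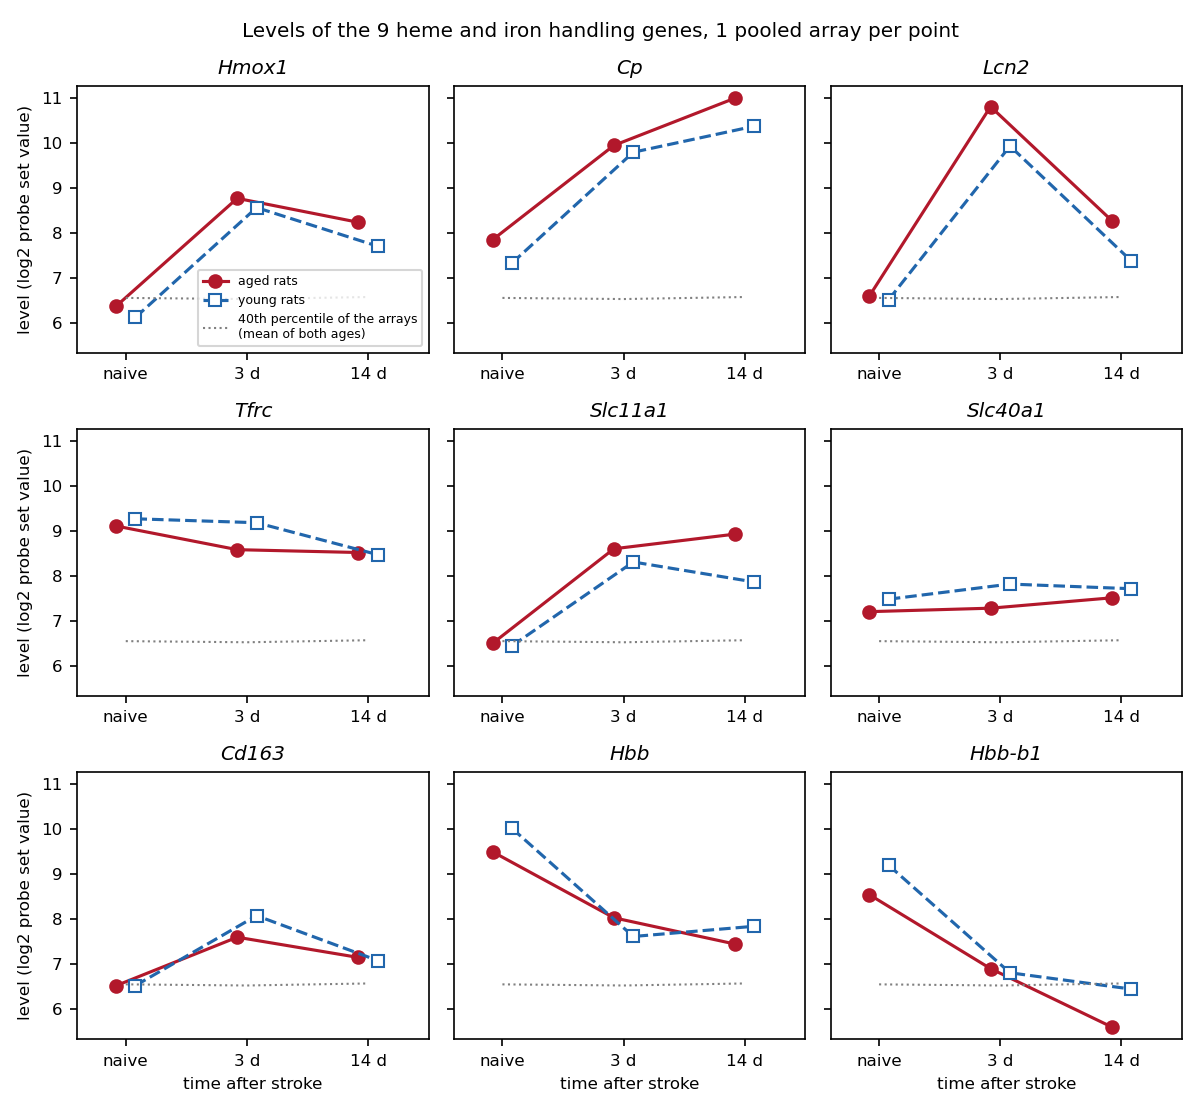
Level of each of the 9 genes (vertical axis, log2 probe set value) in naive brain and at 3 d and 14 d after stroke (horizontal axis). Each point is 1 pooled array, with filled circles for aged and open squares for young rats, and the dotted line is the 40th percentile of the arrays. Lcn2 peaks at 3 d in both ages, at 10.80 in aged and 9.92 in young rats, Cp is highest at 14 d, and Hbb and Hbb-b1 are highest in naive brain.

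Hmox1 encodes heme oxygenase-1, the inducible enzyme that opens the heme ring. Its level in naive brain was 6.37 in aged and 6.12 in young rats. It was 8.76 in aged and 8.56 in young rats at 3 d, and 8.23 in aged and 7.70 in young rats at 14 d. Every stroke array was above both naive arrays, and both 3 d arrays were above both 14 d arrays. Hmox1 was 5.33-fold higher at 3 d than in naive brain (change 2.41 ± 0.13 SE, adjusted p = 7.53e-05 by limma) and 3.29-fold higher at 14 d (1.72 ± 0.13, adjusted p = 0.000194). The step between 3 d and 14 d, -0.70 ± 0.13, passed with an adjusted p of 0.0369. It lost the call when age was left out of the fit (adjusted p = 0.167) and, with changes of -0.54 to -0.79, in 5 of the 6 fits that left out 1 array, the exception being that without the aged 14 d array. Hmox2, the constitutive heme oxygenase, changed by -0.03 at 3 d (adjusted p = 0.884) and by -0.12 at 14 d (adjusted p = 0.509). Biliverdin reductases, which turn biliverdin into bilirubin, also did not pass at either time: Blvra changed by 0.22 at 3 d and -0.30 at 14 d, and Blvrb by -0.06 and -0.15.

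Cd163 encodes the macrophage receptor for haptoglobin-hemoglobin complexes. In naive brain it read 6.53 in aged and 6.53 in young rats. It was 7.60 in aged and 8.08 in young rats at 3 d, and 7.15 in aged and 7.08 in young rats at 14 d. The 3 d arrays were the highest, the 14 d arrays lay between, and no 2 time points overlapped. The rise was 2.48-fold at 3 d (1.31 ± 0.16 SE, adjusted p = 0.00131 by limma) and 1.51-fold at 14 d (0.59 ± 0.16, adjusted p = 0.032). The 14 d call was lost without the aged naive array (adjusted p = 0.135), the young naive array (0.209) or the aged 14 d array (0.124). The step between 3 d and 14 d, -0.72 ± 0.16, missed the threshold with an adjusted p of 0.0624. Cd163 is itself 1 of 7 markers of border macrophages, the macrophages of meninges and vessel walls. Of these 7, 4 rose at 3 d and 4 at 14 d (57.1% each), against 14.4% and 13.6% of all tested genes. The other 3 risers were Mrc1 (1.64 at 3 d and 1.55 at 14 d), Lyve1 (1.37 and 0.54) and Siglec1 (2.35 and 2.44). Lyve1, like Cd163, had its highest level at 3 d, and its step between 3 d and 14 d, -0.84, passed with an adjusted p of 0.0156. Without Cd163 the summed linear level of these markers was 594 in aged and 556 in young naive brain, 1260 in aged and 1610 in young rats at 3 d, and 1460 in aged and 1070 in young rats at 14 d, and its part in the Cd163 values was not tested. Of the serum carriers, Hp (haptoglobin) changed by 0.14 at 3 d and -0.01 at 14 d without passing. Hpx (hemopexin) read between 5.57 and 6.16 and was not tested.

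Lcn2 encodes lipocalin-2, a secreted protein that binds iron-loaded siderophores and is made by reactive astrocytes and myeloid cells. It had the greatest change at 3 d of the 9 genes. In naive brain it read 6.60 in aged and 6.52 in young rats. It was 10.80 in aged and 9.92 in young rats at 3 d, and 8.27 in aged and 7.38 in young rats at 14 d. No 2 time points overlapped, and both 14 d arrays were nearer to the naive level than to the 3 d level. Lcn2 was 14.0-fold higher at 3 d than in naive brain (3.80 ± 0.20 SE, adjusted p = 7.53e-05 by limma) and 2.41-fold higher at 14 d (1.27 ± 0.20, adjusted p = 0.00472). It was 5.8-fold lower at 14 d than at 3 d (-2.54 ± 0.20, adjusted p = 0.00108), by -2.53 in aged and -2.55 in young rats.

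The Lcn2 promoter is shown because this gene had the widest swing of the 9. The 250 bases before its start, at chr3:36081781-36082030 on the minus strand of assembly GRCr8 (RefSeq), are given with matches to the kappa B core bound by NF-kappa-B (GGG and CC around any 5 bases) in capitals, found on either strand. The first capital run holds 2 overlapping matches.
Lcn2: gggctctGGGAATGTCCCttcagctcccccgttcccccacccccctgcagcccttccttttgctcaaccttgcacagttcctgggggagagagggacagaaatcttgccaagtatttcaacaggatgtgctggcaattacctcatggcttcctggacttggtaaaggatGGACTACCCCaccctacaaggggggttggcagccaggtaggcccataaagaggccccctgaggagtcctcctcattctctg
The 3 matches begin 243, 242 and 81 bases before the start. The same pattern occurs in 42.3% of 33469 RefSeq rat promoters of this length.

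The reactive astrocyte markers other than Lcn2 and Cp had a summed linear level of 4280 in aged and 2770 in young naive brain, 16100 in aged and 17100 in young rats at 3 d, and 12800 in aged and 11200 in young rats at 14 d. Of 10 neutrophil markers on the array, 7 stayed below the filter on every array, among them S100a8 at 3.43 to 3.72, Mpo at 5.86 to 6.37 and Cxcr2 at 4.75 to 5.06. Another of the 7, S100a9, was highest at 3 d. It read 6.01 in aged and 5.95 in young naive brain, 6.37 in aged and 6.44 in young rats at 3 d, and 5.65 in aged and 5.87 in young rats at 14 d. Csf3r, the receptor for granulocyte colony-stimulating factor, and Mmp8, a collagenase, passed: Csf3r rose by 2.03 at 3 d and 1.96 at 14 d, and Mmp8 by 2.53 and 2.52. Elane, the neutrophil elastase gene and the other marker tested, changed by -0.32 at each time (adjusted p = 0.239 and 0.242). The summed level of the neutrophil list was 584 in aged and 574 in young naive brain. It was 1260 in aged and 1140 in young rats at 3 d, and 1460 in aged and 945 in young rats at 14 d. The median log2 level of the list moved less, from 5.46 in aged and 5.52 in young naive brain. At 3 d this median was 5.77 in aged and 5.6 in young rats, and at 14 d 5.58 and 5.85. The part of either cell type in the Lcn2 values was not tested.

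Slc11a1 encodes a metal transporter of phagosomes, which moves iron and manganese out of the phagosome in macrophages. Naive brain gave a level of 6.51 in aged and 6.45 in young rats. It was 8.60 in aged and 8.31 in young rats at 3 d, and 8.93 in aged and 7.87 in young rats at 14 d. All stroke arrays were above both naive arrays, and the 14 d arrays lay on either side of the 3 d arrays. Slc11a1 was 3.94-fold higher at 3 d than in naive brain (1.98 ± 0.22 SE, adjusted p = 0.000965 by limma) and 3.78-fold higher at 14 d (1.92 ± 0.22, adjusted p = 0.00116). The fitted step between 3 d and 14 d was -0.06 ± 0.22 (adjusted p = 0.965). The microglia and macrophage markers, whose summed level is given above, also rose at both times. Between 3 d and 14 d their median change was 0.42 in aged and 0.05 in young rats, where Slc11a1 changed by 0.33 and -0.45. Over the same interval the summed level of the neutrophil list, also given above, rose in aged and fell in young rats, while its median log2 level moved the opposite way. The part of either cell type in the Slc11a1 values was not tested.

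Tfrc encodes transferrin receptor 1, through which cells take up transferrin-bound iron. Naive brain gave a level of 9.11 in aged and 9.27 in young rats. It was 8.58 in aged and 9.18 in young rats at 3 d, and 8.52 in aged and 8.47 in young rats at 14 d. The young 3 d array lay between the naive arrays, and all other stroke arrays were lower. The fall at 14 d was 1.62-fold (-0.69 ± 0.17 SE, adjusted p = 0.0219 by limma), whereas the difference at 3 d, -0.31 ± 0.17, did not pass (adjusted p = 0.221). The 14 d call was lost without the aged naive array (adjusted p = 0.191), the young naive array (0.098) or the young 14 d array (0.0588). The neuron markers had a summed level of 25100 in aged and 26100 in young naive brain, 20200 in aged and 20700 in young rats at 3 d, and 18400 in aged and 19300 in young rats at 14 d. The endothelial markers had one of 4980 in aged and 5170 in young naive brain. It was 6900 in aged and 7760 in young rats at 3 d, and 5860 in aged and 6820 in young rats at 14 d. The part of either cell type in the Tfrc values was not tested.

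Cp encodes ceruloplasmin, the copper ferroxidase that readies iron for transferrin and works with ferroportin in astrocytes. Its level in naive brain was 7.85 in aged and 7.33 in young rats. It was 9.94 in aged and 9.79 in young rats at 3 d, and 10.99 in aged and 10.37 in young rats at 14 d. No 2 time points overlapped, and the order was the same in both ages: naive, 3 d, 14 d. Cp was 4.83-fold higher at 3 d than in naive brain (2.27 ± 0.15 SE, adjusted p = 0.000114 by limma) and 8.5-fold higher at 14 d (3.09 ± 0.15, adjusted p = 6.86e-05). It was the 1 gene of the 9 that was higher at 14 d than at 3 d by the test, 1.76-fold (0.81 ± 0.15, adjusted p = 0.0288). That step lost the call when age was left out of the fit (adjusted p = 0.191) and without the aged naive (0.0759), young naive (0.0759) or aged 3 d array (0.219).

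Slc40a1 encodes ferroportin, the only known exporter of iron from cells. Its level in naive brain was 7.21 in aged and 7.49 in young rats. It was 7.29 in aged and 7.82 in young rats at 3 d, and 7.52 in aged and 7.72 in young rats at 14 d. The means of the 3 time points differed by less than the gap between the ages at 3 d. The change was 0.21 ± 0.13 at 3 d (SE, adjusted p = 0.296 by limma) and 0.27 ± 0.13 at 14 d (adjusted p = 0.179). Heph (hephaestin), the other ferroxidase of iron export, changed by 0.15 at 3 d (adjusted p = 0.514) and by 0.23 at 14 d (adjusted p = 0.327). Of the 3 genes of iron export, Cp alone passed the test, at both times.

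**Figure D2:**
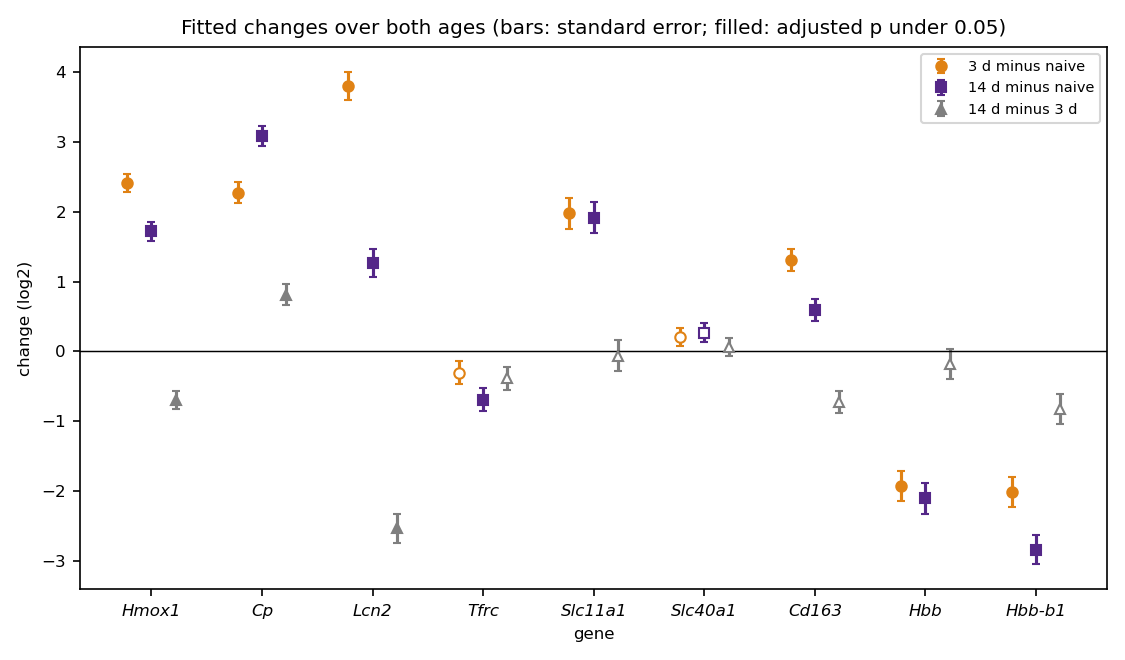
Fitted change of each gene (vertical axis, log2) for 3 d minus naive, 14 d minus naive and 14 d minus 3 d, with bars of 1 standard error over 6 arrays. Filled symbols passed the adjusted threshold of 0.05. Lcn2 has a change of 3.80 at 3 d and 1.27 at 14 d, Cp one of 2.27 and 3.09, and Slc40a1 is open throughout.

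Hbb and Hbb-b1 encode adult beta-globins, the protein part of hemoglobin. The Hbb level in naive brain was 9.49 in aged and 10.01 in young rats. It was 8.03 in aged and 7.62 in young rats at 3 d, and 7.45 in aged and 7.84 in young rats at 14 d. Hbb-b1 read 8.54 in aged and 9.20 in young naive brain, 6.90 in aged and 6.81 in young rats at 3 d, and 5.61 in aged and 6.45 in young rats at 14 d. For both genes every stroke array was below both naive arrays, and the young naive array was the highest. Hbb was 3.81-fold lower at 3 d than in naive brain (-1.93 ± 0.22 SE, adjusted p = 0.000962 by limma) and 4.31-fold lower at 14 d (-2.11 ± 0.22, adjusted p = 0.000659). Hbb-b1 was 4.03-fold lower at 3 d (-2.01 ± 0.21, adjusted p = 0.000726) and 7.16-fold lower at 14 d (-2.84 ± 0.21, adjusted p = 0.000178). On both 14 d arrays Hbb-b1 lay below the 40th percentile, where array values compress differences. Between 3 d and 14 d neither gene passed, with changes of -0.18 (adjusted p = 0.857) for Hbb and -0.83 (adjusted p = 0.113) for Hbb-b1.

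The promoters of both genes and of Hbb-bs, a related beta-globin, are shown because Hbb and Hbb-b1 were both lower after stroke. The promoters share the classical elements of globin promoters, whose part in the levels was not tested. Hbb-bs was read only in a probe set annotated with Hbb-b1 as well. Each line gives the 120 bases before the start (RefSeq, GRCr8, minus strand), at chr1:167663722-167663841 for Hbb, chr1:167643521-167643640 for Hbb-b1 and chr1:167631631-167631750 for Hbb-bs. Capitals mark matches on either strand to CACCC, to CCAAT (which reads ATTGG on the other strand) and to ATAAA, the core of the TATA-type element.
Hbb: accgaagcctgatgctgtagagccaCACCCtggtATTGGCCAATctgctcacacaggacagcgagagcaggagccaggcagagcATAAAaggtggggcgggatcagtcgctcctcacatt
Hbb-b1: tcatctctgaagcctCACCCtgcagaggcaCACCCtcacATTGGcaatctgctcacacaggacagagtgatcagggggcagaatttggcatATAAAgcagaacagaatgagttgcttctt
Hbb-bs: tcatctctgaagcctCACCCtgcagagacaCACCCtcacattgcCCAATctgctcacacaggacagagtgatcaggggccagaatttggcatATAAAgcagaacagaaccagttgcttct
In Hbb a CCAAT and its reverse lie side by side, and Hbb-b1 and Hbb-bs have 2 CACCC matches here against 1 in Hbb. The promoters of Hbb-b1 and Hbb-bs are 94.2% identical over these bases, and that of Hbb is 67.7% identical to Hbb-b1 and 68% to Hbb-bs. Each of these short motifs is common: CACCC is found in 49.2%, CCAAT in 34% and ATAAA in 39.3% of the 33469 promoters of 250 bases. Near-identical globin genes can share probes, so the single values of Hbb and Hbb-b1 are uncertain as readings of one gene.

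Another beta-globin probe set, annotated with both Hbb-bs and Hbb-b1, read 8.88 in aged and 9.61 in young naive brain, 7.62 in aged and 7.46 in young rats at 3 d, and 6.95 in aged and 7.01 in young rats at 14 d. The 2 probe sets annotated with both Hba-a2 and Hba-a1, the adult alpha-globins, were lower after stroke too. The first read 10.66 in aged and 11.23 in young naive brain, 10.06 in aged and 9.60 in young rats at 3 d, and 8.88 in aged and 8.49 in young rats at 14 d. The second read 11.29 in aged and 11.83 in young naive brain, 10.79 in aged and 9.99 in young rats at 3 d, and 9.28 in aged and 9.04 in young rats at 14 d. At 3 d the difference from naive brain was smaller for the alpha-globin sets than for the beta-globin sets in both ages. Relative to naive brain the 3 beta-globin probe sets changed by -1.64 to -1.25 and the 2 alpha-globin sets by -0.60 to -0.50 in aged rats, against -2.40 to -2.14 and -1.83 to -1.63 in young rats. At 14 d the ranges came closer, with beta at -2.93 to -1.93 and alpha at -2.002 to -1.78 in aged rats, and beta at -2.75 to -2.17 and alpha at -2.78 to -2.74 in young rats. These are differences between single arrays and have no test.

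**Figure D3:**
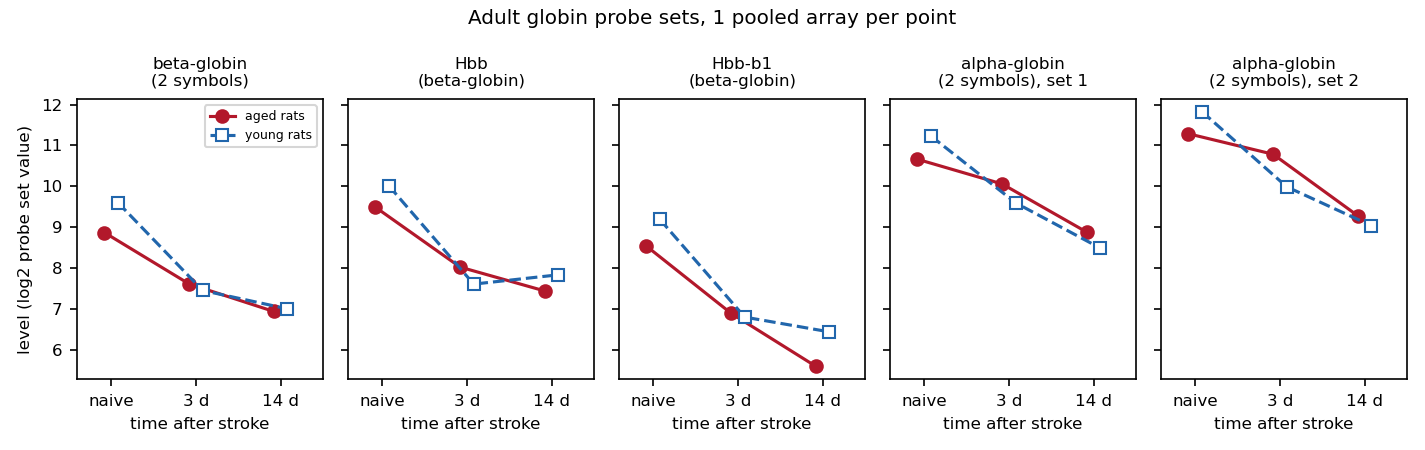
Level (vertical axis, log2 probe set value) of the 3 beta-globin and 2 adult alpha-globin probe sets in naive brain and at 3 d and 14 d after stroke (horizontal axis), with 1 pooled array per point, filled circles for aged and open squares for young rats. All 5 are highest in naive brain, and the alpha-globin sets at 3 d, those of aged rats above all, lie closer to their naive level than the beta-globin sets do.

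Few other red cell genes were above the filter. Of 12 red cell genes on the array, 5 were tested: besides Hbb and Hbb-b1 these were Hba-a3, which fell at 14 d (-0.88, adjusted p = 0.0134) and changed by -0.55 at 3 d (adjusted p = 0.0734), Klf1 (-0.26 at 3 d and -0.22 at 14 d) and Bpgm (-0.11 and -0.35), neither of which passed. Klf1 read 6.89 to 7.28 and Bpgm 8.69 to 9.07, above the 40th percentile on every array. Slc4a1, the anion exchanger of the red cell membrane, read 5.97 to 6.46 and Alas2, the first enzyme of heme synthesis in red cell precursors, 5.69 to 6.38, both under the filter on every array. Ahsp, the alpha-globin chaperone, read 3.39 to 3.79. Without Hbb and Hbb-b1 the summed linear level of the red cell list was 1160 in aged and 1190 in young naive brain. It was 1060 in aged and 989 in young rats at 3 d, and 906 in aged and 1020 in young rats at 14 d. Bpgm was the brightest gene in this sum. The alpha-globin probe sets annotated with both Hba-a2 and Hba-a1 are not in it, so the sum does not describe red cell RNA as a whole. The embryonic globin probe sets Hbg1, Hbe1 and Hbe2 read 3.84 to 5.82. The part of blood left in the tissue in the globin values was not tested.

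Beyond the 9 genes, 71 genes of heme and iron metabolism were listed by role, of which 56 were tested. At 3 d 5 of them rose and 1 fell (10.7%, against 22.2% of all tested genes), and at 14 d 7 rose and 3 fell (17.9%, against 25%). Their median change was 0.07 at 3 d and 0.05 at 14 d, against -0.03 and -0.05 over all tested genes.

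Ferritin, the iron store, moved in 1 of its chains. Ftl1, the light chain, read 12.05 in aged and 11.87 in young naive brain, 13.12 in aged and 12.85 in young rats at 3 d, and 13.26 in aged and 12.75 in young rats at 14 d. It was 2.04-fold higher at 3 d (adjusted p = 0.00169 by limma) and 2.07-fold higher at 14 d (adjusted p = 0.0016). Fth1, the heavy chain with ferroxidase activity, changed by 0.05 at 3 d (adjusted p = 0.811) and by 0.02 at 14 d (adjusted p = 0.921), and both signs turned under quantile normalization. Ncoa4, which carries ferritin to breakdown, changed by 0.27 and 0.20, and the iron chaperone Pcbp2 by 0.22 and 0.26, without passing.

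Among genes of iron uptake other than the 3 described above, Tf, the iron carrier transferrin, rose at 3 d (0.50, adjusted p = 0.0358), a call lost under quantile normalization (0.0615) and without the filter (0.0516). It was also lost in the 4 fits without a naive or a 3 d array. At 14 d Scara5, a ferritin receptor, rose 1.99-fold (adjusted p = 0.00222 by limma), and Steap4, a metalloreductase, rose by 0.76 (adjusted p = 0.0432). Steap2, a relative of Steap4, fell by 0.50 at 14 d (adjusted p = 0.0221), a call not followed through the alternative fits. The Steap4 call was lost under quantile normalization (0.0521), under centring on the median (0.0521) and without the filter (0.0515). It was also lost without either naive array or the aged 14 d array, and the change was 0.306 without the aged and 1.209 without the young 14 d array. Relative to naive brain Steap4 differed at 14 d by 1.22 in aged and 0.30 in young rats. Scara5 was also higher at 14 d than at 3 d (0.74, adjusted p = 0.0303), which held in 1 of the 6 fits that left out 1 array. Heme scavenging, transport and breakdown added Lrp1, a receptor for hemopexin-bound heme, which rose by 0.47 at 14 d (adjusted p = 0.0244). That call was lost without either naive array or the aged 14 d array.

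Among 14 tested regulators of iron and heme genes, 3 rose at each time and none fell (21.4%, against 22.2% of all tested genes at 3 d and 25% at 14 d). Nfe2l2, the transcription factor NRF2 that drives Hmox1 and ferritin genes under oxidative stress, was 2.1-fold higher at 3 d (adjusted p = 0.00294 by limma) and 2.3-fold higher at 14 d (adjusted p = 0.00177). Bach1, the heme-sensing repressor of Hmox1, rose by 0.46 at 3 d (adjusted p = 0.0428) and by 0.50 at 14 d (adjusted p = 0.0292). Its 3 d call was lost under quantile normalization (0.0554), centring (0.0581), no filter (0.0625) and age left out (0.0626). It was also lost in each of the 4 fits without a naive or a 3 d array, and its 14 d call without either naive array or the aged 14 d array. Aco1, the iron regulatory protein with aconitase activity, rose at 3 d (0.56, adjusted p = 0.0257), a call lost without either naive array or the young 3 d array. Bmp6, a signal that in liver raises hepcidin, read 9.79 in aged and 9.59 in young naive brain, 9.99 in aged and 10.22 in young rats at 3 d, and 11.18 in aged and 11.13 in young rats at 14 d. Bmp6 was 2.75-fold higher at 14 d than in naive brain (adjusted p = 0.000485) and 2.07-fold higher than at 3 d (adjusted p = 0.00769). Hamp, which encodes hepcidin, changed by -0.24 at 3 d and 0.15 at 14 d without passing.

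None of 11 tested genes of heme synthesis passed in any of the 4 comparisons of the limma fit. Over all tested genes 22.2% passed at 3 d, 25% at 14 d, 3.16% between 3 d and 14 d and 0% between the ages. Every gene that passed also has an unadjusted p under 0.05, so the unadjusted shares over all tested genes are at least as high. At an unadjusted p under 0.05 there were 2 of 11 at 3 d, 1 at 14 d and 0 in the comparisons of 14 d with 3 d and of aged with young rats, and the changes nearest to the threshold were those of Alad (-0.42, adjusted p = 0.0648) and Slc25a38 (-0.35, adjusted p = 0.0745) at 3 d and of Alad at 14 d (-0.36, adjusted p = 0.0939). Of 9 genes of mitochondrial iron and iron-sulfur clusters, Slc25a28, which carries iron into mitochondria, fell at both times (-0.57, adjusted p = 0.0147, and -0.48, adjusted p = 0.0257), and Glrx5, an iron-sulfur cluster carrier, fell at 14 d (-0.50, adjusted p = 0.0282). The share of these genes that passed, all lower, was 11.1% at 3 d, against 22.2% of all tested genes (7.87% lower). At 14 d it was 22.2%, against 25% (11.4% lower). The Slc25a28 call at 3 d was lost in the 4 fits without a naive or a 3 d array. The 14 d calls of both were lost without either naive array or the aged 14 d array, and that of Glrx5 also with age left out (0.0722).

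**Figure D4:**
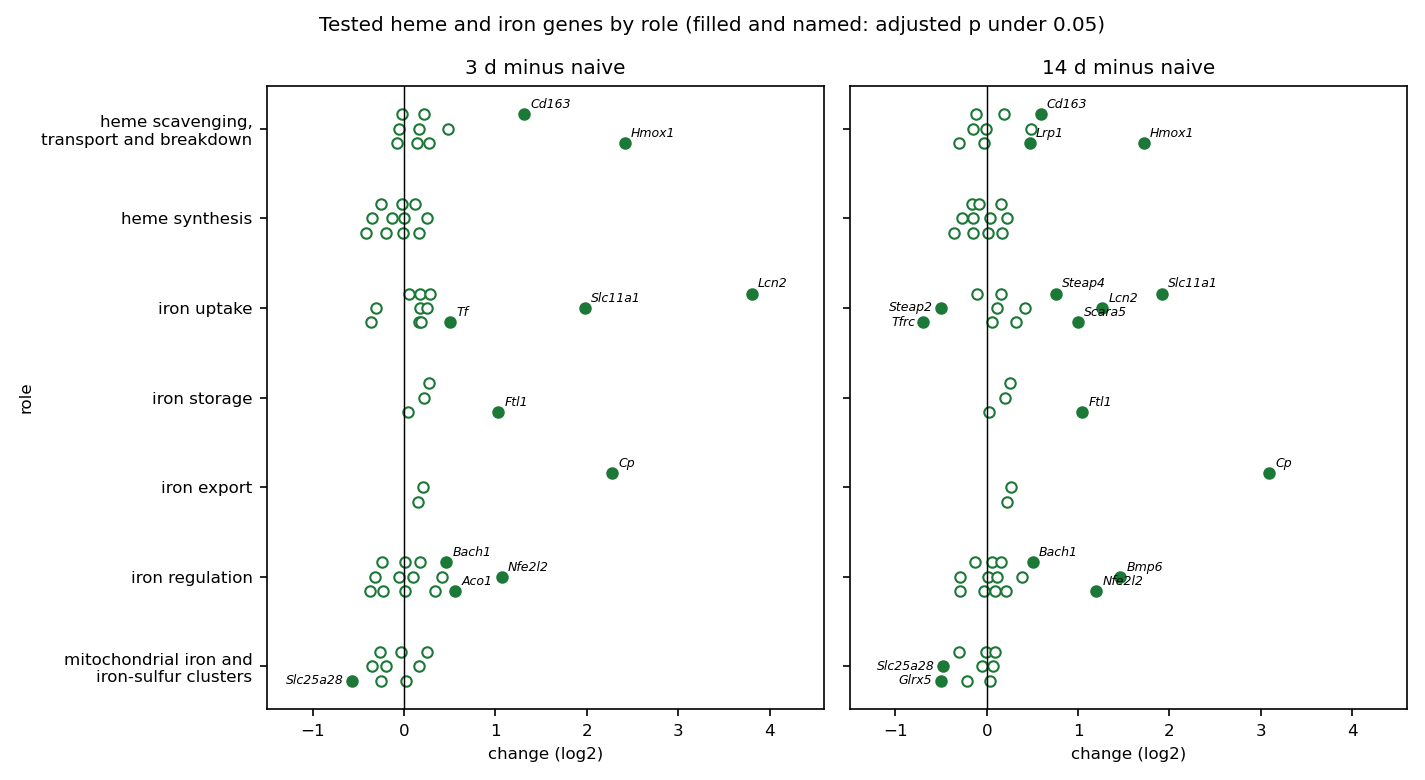
Change of each tested heme and iron gene (horizontal axis, log2) at 3 d and at 14 d relative to naive brain, by role (vertical axis, offset within a role so that points can be seen). Each circle is 1 gene, and filled circles with names passed the adjusted threshold of 0.05 over all tested genes. Heme synthesis has no filled circle, and Lcn2 at 3 d and Cp at 14 d lie farthest to the right.

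Of 9 tested target genes of Nfe2l2 other than those above, 4 rose at 3 d (44.4%, against 14.4% of all tested genes) and 3 at 14 d (33.3%, against 13.6%), and none fell. The median changes were 0.53 and 0.19, against -0.03 and -0.05 over all tested genes. Among the risers were the metal-binding metallothioneins: Mt1 rose 3.96-fold at 3 d (adjusted p = 0.000233) and 2.81-fold at 14 d (adjusted p = 0.000797), and Mt2A 2.37-fold (adjusted p = 0.000401) and 2.18-fold (adjusted p = 0.000667). Slc7a11, the cystine importer that feeds glutathione synthesis, rose 1.67-fold at 3 d (adjusted p = 0.0071) and 2.32-fold at 14 d (adjusted p = 0.00084). Prdx1, a peroxidase, rose by 0.59 at 3 d (adjusted p = 0.0145). Without the young naive or the young 3 d array the 3 d calls of Slc7a11 and Prdx1 were lost, that of Prdx1 also without the aged naive array. Gclm and Gclc, both subunits of the enzyme of glutathione synthesis, changed by -0.09 and -0.24 at 3 d and by -0.42 and -0.15 at 14 d, and did not pass. Nqo1, a quinone reductase, and Txnrd1, a thioredoxin reductase, changed by 0.53 (adjusted p = 0.072) and 0.31 (adjusted p = 0.22) at 3 d and by 0.19 and -0.06 at 14 d, also without passing. Srxn1, which repairs oxidized peroxiredoxins, changed by 0.10 and -0.12.

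The genes whose levels followed each of the 9 most closely were named by Pearson's r over the 6 arrays, among tested genes that spanned at least 1 on the log2 scale (1519 or 1520 candidates). The points of such a correlation share the 6 pools and the common scale of the arrays. Hmox1 was most like Tpm4 (r = 0.999), Pdpn (0.998) and S100a11 (0.997). Cp was most like Lgals3bp, Oasl2 and Cxcl16 (0.998 each). The nearest to Lcn2 were Hist2h3c2 (0.992), Lrg1 (0.991) and Gpr4 (0.988). Slc11a1 was most like Fermt3 (0.999), Rac2 (0.998) and Csf3r (0.998). The nearest to Cd163 were Nde1 (0.995), Parva (0.994) and Slco2a1 (0.993). Hbb was nearest to Grm4 (0.999), Dlgap3 (0.994) and Hpca (0.983), and Hbb-b1 to Gabrd (0.998), Kcnip1 (0.997) and Kcnj11 (0.995). Grm4, Gabrd and Kcnip1 encode a glutamate receptor, a GABA receptor subunit and a potassium channel partner of neurons. Tfrc was less closely followed, by Idi1 (0.933), Reep1 (0.917) and Ndufb2 (0.909), and Slc40a1 least, by Lox (0.811), Cpxm2 (0.793) and Enpep (0.754). Among the 9 genes themselves r was 0.971 for Hbb with Hbb-b1, -0.995 for Cp with Hbb-b1, 0.953 for Hmox1 with Slc11a1, 0.906 for Hmox1 with Lcn2 and 0.569 for Cp with Lcn2.

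No gene passed between the ages over the 3 time points (0% of the tested genes), and 852 genes (7.78%) had an unadjusted p under 0.05 in the limma fit. Of the 9 genes, 6 had an unadjusted p under 0.05, with adjusted p-values of 0.63 or 0.631, which is not a call. Lcn2 was higher in aged rats by 0.62 ± 0.17 (SE), Slc11a1 by 0.47 ± 0.18, Cp by 0.43 ± 0.12 and Hmox1 by 0.33 ± 0.11, each with the aged array above the young at 3 of 3 time points. Slc40a1 was lower in aged rats at 3 of 3 time points (-0.34 ± 0.11), and Hbb-b1 differed by -0.47 ± 0.18 and was lower at 2 of 3. The Slc11a1 difference was 0.174 without either 14 d array. That of Hbb-b1 was -0.746 when a 3 d array was left out and -0.28 when a 14 d array was.

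The gap between the aged and the young array at single time points has no test, since each group was 1 array. At 14 d the gap exceeded 0.5 upward in 4 of the 9 genes and downward in 1, against 8.32% and 3.59% of all tested genes. The 4 were Slc11a1 (1.06), Lcn2 (0.89), Cp (0.62) and Hmox1 (0.53), and the 1 was Hbb-b1 (-0.84). The microglia and macrophage markers had a median gap of 0.48 at 14 d, against 0.02 over all tested genes, and 5 of 10 exceeded 0.5. Of the 3 tested neutrophil markers, Csf3r (0.94) and Mmp8 (1.35) were higher and Elane (-0.57) lower on the aged array. Of 8 reactive astrocyte markers other than Lcn2 and Cp, 1 exceeded 0.5 in each direction, with a median gap of 0.12. The part of these markers in the gaps was not tested. At 3 d the gap exceeded 0.5 upward in 1 gene, Lcn2 (0.87), and downward in 2, Tfrc (-0.60) and Slc40a1 (-0.54), against 0.959% and 2% of all tested genes. In naive brain Cp exceeded it upward (0.52) and Hbb (-0.52) and Hbb-b1 (-0.65) downward, against 0.968% and 0.256%. There the microglia and macrophage markers had a median gap of 0.37, with 3 of 10 past 0.5. The reactive astrocyte markers had one of 0.24, with 2 of 8 past 0.5, Gfap among them, and the part of either in the Cp gap was not tested.

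**Figure D5:**
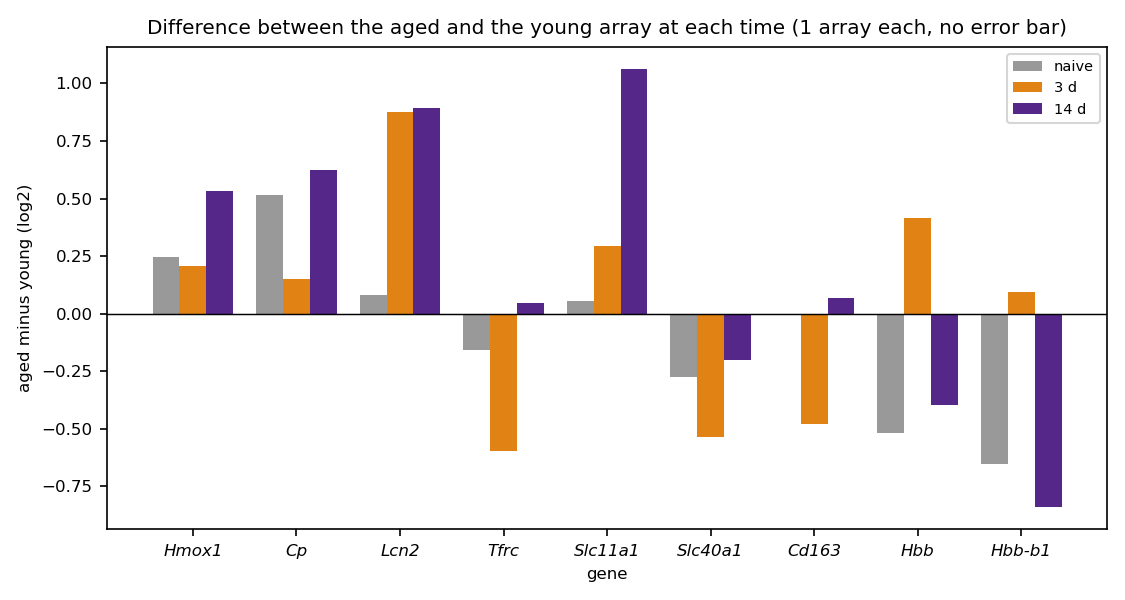
Difference between the aged and the young array (vertical axis, log2) for each of the 9 genes in naive brain, at 3 d and at 14 d, with 1 array per age and time and hence no error bar. Bars start at 0. Slc11a1 has its tallest bar at 14 d (1.06), Lcn2 is high at 3 d (0.87) and 14 d (0.89) and near 0 in naive brain (0.08), and Hbb changes sign between the times.

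Within each age, single arrays were set against each other without a test. At 3 d 5 of the 9 genes were at least 2-fold higher and 2 at least 2-fold lower than in naive brain in aged rats (5.45% and 0.676% of all tested genes), and likewise 5 and 2 in young rats (6.94% and 0.347%). At 14 d the counts were 4 and 2 in aged rats (7.49% and 1.16%) and 3 and 2 in young rats (4.88% and 0.347%). Between 3 d and 14 d they were 1 and 2 in aged rats (1.51% and 0.886%) and 0 and 1 in young rats (0.438% and 1.5%). Lcn2 was higher than in naive brain by 4.20 in aged and 3.41 in young rats at 3 d, and by 1.67 in aged and 0.86 in young rats at 14 d. Slc11a1 was higher by 2.42 in aged and 1.41 in young rats at 14 d, and Cp by 3.14 in aged and 3.03 in young rats. Hmox1 was higher at 3 d by 2.39 in aged and 2.44 in young rats. Hbb changed by -1.46 in aged and -2.40 in young rats at 3 d. Whether these changes differ between the ages was not tested, because 1 array per group leaves no error for it.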

How the data were processed

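The deposited tables hold 1 log2 value for each probe set on each array; no source states the base, which was inferred from the spread of values. The submitters' processing notes name R 2.14.0 and affy. Background correction, normalization and genome build: not given in the sources used here. The platform annotation gave 1 symbol to 15209 of the 28826 probe sets, several to 306 and no name here to 13311; 15178 matched RefSeq GRCr8, used for names and promoters (7 of the 9 genes). A gene was represented by its brightest single-symbol probe set among those at or above the 40th percentile on any array. Age and time were fitted additively with limma 3.58.1 (R 4.3.3) on 6 arrays, with 2 residual and 5.56 prior degrees of freedom, and p-values were adjusted by Benjamini-Hochberg over 10947 genes. The fit was tested on simulated data. The 9 genes and all lists were chosen with earlier results of these data known. Named besides the 9 were, per list and comparison, up to 4 genes past the threshold and up to 2 others with the largest change; Hmox2, Fth1, Heph, Blvra, Blvrb, Hp, Hpx, Hamp, Ncoa4, Pcbp2, Gclm, Gclc, Srxn1 and genes of low signal were named after their values were seen. The 13 alternative fits changed the scaling, the filter (none, or the 60th percentile), the variance model, the covariate or the choice of probe set, or left out 1 array. The number of arrays limits the precision.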

Additional observations from a re-analysis of the deposited data

Results flagged for a closer look

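Several genes had changes of opposite sign in aged and young rats, each seen in 1 array per group, and these differences were not tested. Between 3 d and 14 d Slc11a1 changed by 0.33 in aged and -0.45 in young rats. Over the same interval Slc40a1 changed by 0.23 in aged and -0.10 in young rats, and Hbb by -0.58 in aged and 0.23 in young rats. At 3 d relative to naive brain Heph changed by -0.033 in aged and 0.33 in young rats, and Fth1 by -0.074 in aged and 0.17 in young rats. At 14 d relative to naive brain Fth1 changed by -0.06 in aged and 0.10 in young rats. For Slc40a1, Heph and Fth1 the smaller change of each pair lay within the fitted standard error of 0.133, 0.156 and 0.125.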

How the results depend on the processing

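Over 7 alternatives that kept all arrays and 6 fits that left out 1 array, the 7 genes called at 3 d kept their call and direction in each. At 14 d the 8 called genes kept theirs in all 7 alternatives, and 6 to 8 passed without 1 array. Between 3 d and 14 d, 3 of the 9 passed in the reported fit, 5 with trended and robust variances (adding Cd163, adjusted p = 0.0284, and Hbb-b1, 0.0407), 1 with age left out, and 1 to 4 without 1 array. The listed heme and iron genes passing numbered 11 at 3 d (7 to 17 without 1 array), 16 at 14 d (8 to 21) and 5 between 3 d and 14 d (2 to 6, and 3 with age left out). Over all genes the counts without 1 array were 746 to 3726 at 3 d, 752 to 3470 at 14 d, 221 to 573 between 3 d and 14 d and 0 to 2 between the ages, where trended and robust variances gave 1. Fits without 1 array have 1 residual degree of freedom, and the group left with 1 array is assumed to vary like the others. They turned the sign of small changes that had not passed: between 3 d and 14 d Slc11a1 ranged from -0.504 to 0.385, Slc40a1 from -0.084 to 0.211 and Hbb from -0.615 to 0.258. Between the ages Cd163 ranged from -0.24 to 0.033 and Hbb from -0.457 to 0.01. At 3 d Heph ranged from -0.082 to 0.381, Hmox2 from -0.066 to 0.009 and Fth1 from -0.054 to 0.149, and at 14 d Fth1 from -0.079 to 0.124. Fth1 also turned under quantile normalization (-0.066 at 3 d and -0.057 at 14 d) and, at 14 d, under median centring (-0.033). Median centring put the median of all genes at -0.111 at 14 d, against -0.055 in the reported fit. The cause of these shifts was not tested. The age term of the fit matches the arrays of one age across the time points. No further pairing was possible, because each group was 1 array and the labels give no replicate numbers. Array signal near the 40th percentile limits what can be read of Hmox1, Slc11a1, Cd163 and Lcn2 in naive brain and of Hbb-b1 at 14 d.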

Other observations

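The promoters of 7 of the 9 genes, all but Hmox1 and Slc11a1, were searched for short motifs of factors tied to heme, iron and oxygen, on both strands over 250 bases before the start. TGACNNNGC, the antioxidant response core bound by Nfe2l2, is in 0 of the 7 and in 10.1% of 33469 RefSeq promoters. ACGTG, the hypoxia response core, lies 31 bases before the start of Tfrc and in 16.6% of all promoters. TTCNNNGAA, a STAT core, is in 0 of the 7 and in 7.67% of all. The kappa B core described above occurs in Lcn2, Tfrc, Slc40a1, Cd163 and Hbb, which rose, fell or did not pass.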
